A study of Mus musculus with 12 samples.

Results

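The genes described here are those near which FRA-1 peaks were listed in macrophages stimulated with lipopolysaccharide (LPS, a bacterial cell wall component) but not in unstimulated macrophages, together with the genes that had peaks in both. FRA-1 peaks came from chromatin immunoprecipitation followed by sequencing (ChIP-seq), with 3 replicates per condition. A gene counted as having a peak in a replicate where the deposited table placed a peak of that replicate beside its symbol. Only 5.13% to 7.03% of the peaks of an LPS or unstimulated replicate stood beside a symbol. The other peaks did not enter the count, so that no peak at a gene means no peak assigned to its symbol. Of 8754 genes with a peak in at least 1 LPS or unstimulated replicate, 1156 had peaks in at least 2 LPS and 0 unstimulated replicates and are called gained. Among these, 108 had peaks in all 3 LPS replicates. Another 327 genes had peaks in at least 2 replicates of both conditions and are called kept, of which 94 had peaks in all 6 replicates. Across all conditions of the series, 12321 genes had a peak.

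The cells were peritoneal macrophages from mice 8 weeks old. The sample records describe mice of mixed 129/C57Bl6 background, male or female, and macrophages elicited by thioglycollate for 72 h, while the design text gives C57Bl/6 mice and plain lavage. LPS was given for 1 h, at 1 µg/ml by the sample records and at 10 µg/ml by the design text. The records name 3 mice, each in every condition, whereas the design text speaks of 9 animals, so that it is not settled whether the replicates of different conditions share a mouse. A further condition, apoptotic cells for 1 h, is used only for comparison. No expression was measured in these samples, and of 9 macrophage markers 2 (Fcgr1 and Mrc1) had a peak in any LPS or unstimulated replicate, so that peaks could not serve as a check of the cell type. The labels name no genetic alteration in these groups.

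FRA-1, the product of Fosl1, is a member of the Fos family. It has no transactivation domain of its own like that of c-Fos and binds DNA as a dimer with a Jun protein, together called AP-1. AP-1 dimers recognise short palindromic DNA elements, the best known of which reads TGACTCA on one strand and TGAGTCA on the other. In macrophages, LPS acts through Toll-like receptor 4, NF-kB and MAP kinases, and Fos and Jun genes are among the early genes that this pathway induces.

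The sequence below the gained peaks could be read only where a peak reached the stretch from 250 bp before to 50 bp after a transcription start, for which RefSeq (build GRCm38.p6) gave the bases. Such a stretch is called a promoter here. Of 32851 promoters, 57 were overlapped by peaks in at least 2 LPS and 0 unstimulated replicates. The following upstream parts below LPS peaks are given 5′ to 3′ on the strand of the gene, with the longest unbroken run of A or T in capitals, because such runs were seen in many of these promoters. The genes were chosen after their values were seen: Pxt1 had peaks in all 3 LPS replicates, Clec4a1 encodes a C-type lectin of myeloid cells, Gpbar1 the cell surface bile acid receptor, Lipe the hormone-sensitive lipase, and Rad51c, a DNA repair gene, is an example without a long run.
Pxt1, chr17:28942364-28942512, minus strand: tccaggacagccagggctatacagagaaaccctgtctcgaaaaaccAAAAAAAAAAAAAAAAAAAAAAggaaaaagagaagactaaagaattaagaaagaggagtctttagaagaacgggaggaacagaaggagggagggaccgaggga
Clec4a1, chr6:122921722-122921832, plus strand: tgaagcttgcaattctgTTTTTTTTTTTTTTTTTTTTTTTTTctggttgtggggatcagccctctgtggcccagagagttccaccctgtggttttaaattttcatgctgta
Gpbar1, chr1:74278375-74278490, plus strand: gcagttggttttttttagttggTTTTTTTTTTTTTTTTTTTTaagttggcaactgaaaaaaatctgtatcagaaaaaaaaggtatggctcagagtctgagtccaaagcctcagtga
Lipe, chr7:25396137-25396237, minus strand: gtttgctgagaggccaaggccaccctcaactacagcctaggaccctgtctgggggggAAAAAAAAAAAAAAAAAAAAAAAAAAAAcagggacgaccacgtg
Rad51c, chr11:87404507-87404615, minus strand: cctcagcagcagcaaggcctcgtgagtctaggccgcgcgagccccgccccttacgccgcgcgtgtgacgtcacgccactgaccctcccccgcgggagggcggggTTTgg

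The run was 22 bases long at Pxt1, 25 at Clec4a1, 20 at Gpbar1, 28 at Lipe and 3 at Rad51c. Of the 57 promoters with gained peaks, 37 (64.9%) held a run of at least 12 A or 12 T below the peak, a length set after these sequences had been seen. By comparison, 3.24% of all promoters held such a run anywhere in their 300 bases. It lay below the peak in 25 of 36 promoters (69.4%) with a peak in at least 1 replicate of both conditions. The share was 23.6% in the 546 promoters with a peak in exactly 1 LPS and 0 unstimulated replicates and 2.66% in the 263 with a peak in unstimulated replicates only.

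The share also differed between replicates of one condition. It was 26.3% of the promoters with a peak in LPS replicate 1, 7.28% in LPS replicate 2 and 60.1% in LPS replicate 3, against 7.27%, 9.09% and 21.9% in unstimulated replicates 1, 2 and 3. The replicates with the higher shares, LPS 1 and 3 and unstimulated 3, were also those with the narrowest peaks (smallest width 104 to 116 bp, against 162 to 172 bp in the other replicates of these conditions). The part of these runs and of peak width in the gain of peaks was not tested. Over most of the genome no bases could be read, so that the shares describe promoters only.

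**Figure D1:**
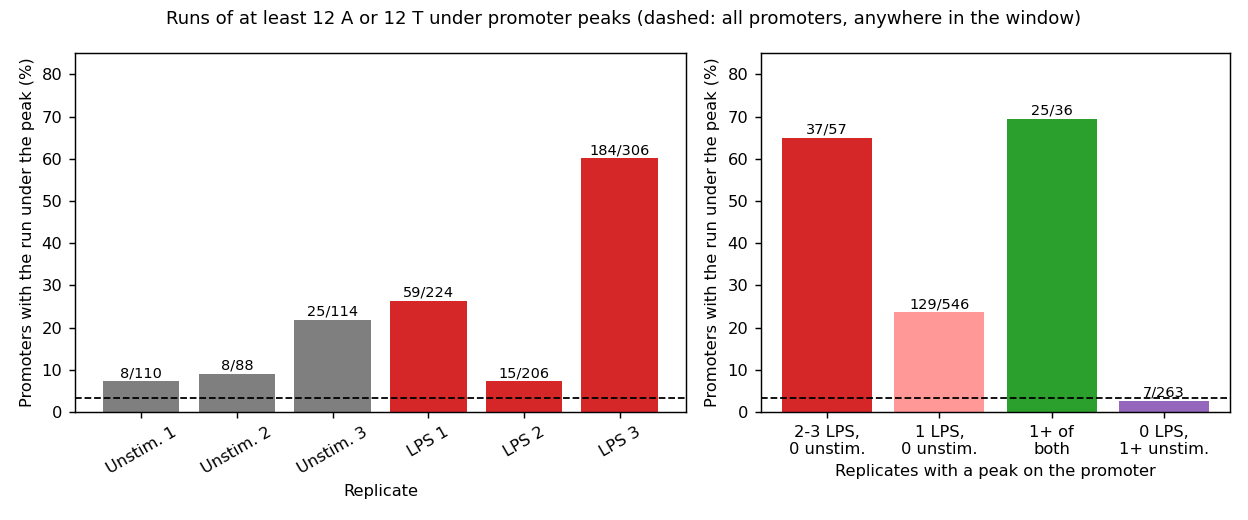
Share of promoters (y axis, in percent) in which a run of at least 12 A or 12 T lay below a FRA-1 peak, by replicate (left) and by the replicates that had a peak on the promoter (right); numbers above the bars are promoters with the run of all promoters with a peak. LPS replicate 3 reached 60.1% and LPS replicate 2 stood at 7.28%, and the dashed line marks the 3.24% of all promoters that hold such a run anywhere.

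The AP-1 element seldom stood below the peaks, in the promoters with gained peaks and in the other groups of promoters. TGACTCA or TGAGTCA, which are reverse complements of each other, stood below the peak in 1 of the 57 promoters with gained peaks, and the looser TGANTCA, which includes both, in 3 of them (5.26%). TGACTCA or TGAGTCA was there in 10 of the 546 promoters with exactly 1 LPS replicate and in 5 of the 263 with unstimulated peaks only. For TGANTCA these shares were 2.75% and 3.80%. Of the 36 promoters with peaks in both conditions, 0 had either form. The gained peaks covered a median of 114 bases of a promoter, so these shares are not comparable with those of whole promoters. Taken over the whole promoters of the gained genes, wherever their peaks lay, TGACTCA or TGAGTCA was found in 49 of 1029 (4.76%), against 9 of 293 (3.07%) for the kept genes and 5.2% of all promoters. For the genes gained in all 3 LPS replicates the share was 10 of 109 promoters (9.17%). These promoters belong to Tmem54, C77080, Rpl9, Dmkn, 4930556N13Rik, Eif1 and Cacul1, some of which are counted at more than 1 start. The element with the bases around it is shown for 3 of them, which also had overlapping peaks in all 3 LPS replicates, with the element in capitals.
C77080, element at chr4:129261443-129261449, minus strand: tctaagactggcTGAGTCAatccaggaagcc
Rpl9, element at chr5:65391540-65391546, minus strand: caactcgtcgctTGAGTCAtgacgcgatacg
Eif1, element at chr11:100319792-100319798, plus strand: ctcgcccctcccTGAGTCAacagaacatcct

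These elements lay 45, 115 and 157 bp upstream of a listed start, and none of them was below a peak assigned to its gene. At Rpl9, which encodes a protein of the large ribosomal subunit, the LPS peaks were centred 1162 to 1926 bp upstream. At Eif1, a factor for start codon selection, they were centred 935 to 2932 bp upstream. A match of letters is a description and not a binding site. Other elements that AP-1 dimers recognise were not counted, here or below the peaks.

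An LPS replicate had 3045 ± 1063 genes with an assigned peak (SD, n = 3), and an unstimulated replicate had 1407 ± 208 (SD, n = 3), a ratio of the means of 2.16. The values were 2878, 2075 and 4182 genes for LPS replicates 1 to 3 and 1436, 1186 and 1598 genes for the unstimulated replicates. The ranges did not overlap, and a two-sided exact permutation test gave p = 0.1. This is the lowest value that this test can give for 3 against 3 samples, so that 0.05 is out of its reach. With the same number of peaks taken from each replicate, the 20981 with the highest scores, the ratio fell to 1.12 (p = 0.4 by the same exact permutation test). The files hold no read counts, and the depth of each library is unknown. Overlap of 2 replicates was the number of genes with a peak in both, in percent of the genes with a peak in either. It was 31.6% for LPS replicates 1 and 3. Unstimulated replicate 3 had 19.3% with LPS replicate 1 and 17.1% with LPS replicate 3. LPS replicate 2 had 11.7% and 11.4% with LPS replicates 1 and 3. Among the unstimulated replicates, the overlap was 7.55% for 1 and 2, 9.69% for 1 and 3, and 10.9% for 2 and 3. This measure is lowered where 2 replicates differ in their number of genes.

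Gained genes made up 13.2% of the genes with a peak, and genes gained in all 3 LPS replicates 1.23%. Kept genes made up 3.74%, and genes with peaks in all 6 replicates 1.07%. The opposite pattern, a peak in at least 2 unstimulated and 0 LPS replicates, was found for 102 genes (1.17%), and a peak in 3 unstimulated and 0 LPS replicates for 4 genes (0.0457%). Most genes had a peak in a single replicate: 3977 in 1 LPS replicate and 1959 in 1 unstimulated replicate. The rule that forms these groups uses the presence of the peaks, so the counts are a description with no test.

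**Figure D2:**
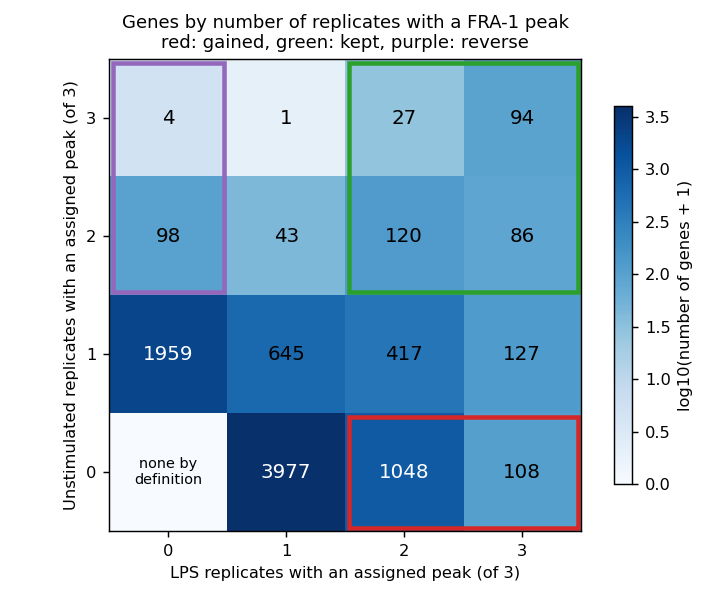
Number of genes by how many of the 3 LPS replicates (x axis) and of the 3 unstimulated replicates (y axis) had an assigned FRA-1 peak; the colour is the number on a log10 scale. The red frame holds the 1048 and 108 gained genes, the green frame the kept genes and the purple frame the 98 and 4 genes of the opposite pattern.

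The gained group depended on LPS replicates 1 and 3. Of the 1048 genes with exactly 2 LPS replicates, 782 (74.6%) had their peaks in LPS replicates 1 and 3, 178 in replicates 2 and 3, and 88 in replicates 1 and 2. Leaving out LPS replicate 1 left 286 genes with peaks in both other LPS replicates, and leaving out LPS replicate 3 left 196, against 890 without LPS replicate 2. Unstimulated replicate 3 kept many genes out of the gained group: of 544 genes with at least 2 LPS and 1 unstimulated replicate, 381 (70.0%) had their only unstimulated peak there. Without unstimulated replicate 3, 1537 genes were gained in at least 2 and 215 in all 3 LPS replicates. Unstimulated replicate 3 and LPS replicate 2 differed from the others of their conditions in peak width. Without both, 1249 genes had peaks in both remaining LPS and in neither remaining unstimulated replicates. In that setting the LPS replicates had narrow and the unstimulated replicates wide peaks, so that condition and peak width cannot be told apart. Among the narrow-peak replicates alone, 1024 of 6064 genes (16.9%) had a peak in both LPS replicates and not in the unstimulated one, and 701 had a peak in the unstimulated replicate and in neither LPS replicate.

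Peaks at gained genes mostly recurred at the same place. In 820 of the 1156 genes (70.9%), peaks of at least 2 LPS replicates overlapped by 1 bp or more. The share was 85.9% for the 782 genes of LPS replicates 1 and 3, but 13.6% and 19.1% for the pairs that include LPS replicate 2. Of the 108 genes gained in all 3 LPS replicates, 102 had overlapping peaks in at least 2 of them, and 47 in all 3. In the kept genes with all 6 replicates, the 3 LPS peaks overlapped in 92 of 94. Of the 102 genes with the opposite pattern, 12 (11.8%) had overlapping peaks in at least 2 unstimulated replicates.

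The 108 genes gained in all 3 LPS replicates came from 100 loci, because 16 of them shared a peak with a neighbour, such as Asl and Crcp or Rps21 and Mir3091. Each peak carries a deposited score, whose definition is not given in the sources used here; it is read as higher for a stronger peak, and the lowest in these tables is 50.01. The gene with the highest lowest score was C77080, with scores of 409.9, 208 and 402 in LPS replicates 1, 2 and 3 and 3 overlapping peaks at about chr4:129229321-129229519. Adpgk, an ADP-dependent glucokinase, had scores of 338, 167 and 365. Slc38a10, a putative amino acid transporter, had 267, 166 and 365. Thap6, annotated as a transcribed pseudogene, had 179, 208 and 165. In each of these the peaks of the 3 LPS replicates overlapped, and the deposited assignment gave no unstimulated peak. When peaks were instead assigned to any RefSeq gene within 5000 bp, 11 of the 25 genes with the highest lowest score stayed gained, among them C77080, Adpgk and Thap6, and Slc38a10 had a peak in 1 unstimulated replicate. The lowest LPS score of a gene ranged over the group from 53.4 at Slc28a2, a nucleoside transporter, to 208 at C77080, with a median of 119.

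Some of the 108 genes are described here by known function. They were picked after the genes had been seen, most of the 108 are not named, and no function was tested for enrichment. Some belong to translation. Beside Rpl9 (179, 187 and 151), the small ribosomal subunit gene Rps21 had scores of 200.5, 136 and 428 in LPS replicates 1, 2 and 3. Eif1 had 225, 127 and 331. Eif3k, a subunit of initiation factor 3, had 68.9, 143 and 199. Across all 8754 genes, 49 were ribosomal protein genes or their pseudogenes. Of these, 8 (16.3%) were gained and 7 (14.3%) kept, against 13.2% and 3.74% of all genes with a peak. The kept ones included Rpl34 and the pseudogene Rpl34-ps1, which had the same scores in every replicate and were counted separately.

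Others act in the secretory pathway. Golph3, a Golgi protein that binds phosphoinositides, had scores of 191, 146 and 284. Cog7, a subunit of the Golgi tethering complex, had 327, 85.7 and 454, with overlapping peaks 1844 to 1874 bp upstream of its start. Trappc3, which shared its peaks with Map7d1, had 215, 122 and 215. Mogs, the glucosidase that begins N-glycan trimming, had 147, 151 and 319. In each of these 4 genes the score in LPS replicate 3 was the highest, at Trappc3 by less than 1 unit.

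Genes of DNA replication and division included Mcm10, a replication initiation factor (217, 122 and 354), Orc6, a subunit of the origin recognition complex (65.4, 146 and 119), and Zwint, a kinetochore protein (204, 77.5 and 293). Genes of metabolism included Asl, the argininosuccinate lyase of arginine synthesis (178, 229 and 226), Fdps, the farnesyl diphosphate synthase of the isoprenoid pathway (223, 126 and 449), and Gaa, the lysosomal glucosidase of glycogen breakdown (137, 127 and 208). The Orc6 peaks lay in a different place in each replicate.

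Other genes act in signalling. Sufu, an inhibitor of Hedgehog signalling, had scores of 179, 146 and 470.1 and 3 overlapping peaks 4266 to 4290 bp upstream of its start. Frzb, a secreted Wnt antagonist, had 137, 167 and 449. Ltbp1, which binds latent TGF-beta, had 223, 146 and 365, and S1pr5, a receptor for sphingosine 1-phosphate, 137, 146 and 265. With the RefSeq assignment, Sufu, Frzb and S1pr5 each had a peak in 1 unstimulated replicate and Ltbp1 in 3. Genes known mainly from blood cells were also among the 108. Clec4a1 had scores of 113, 133 and 182, Ubash3a, a regulator of T cell receptor signalling, 200.1, 82.65 and 202, and Nbeal2, a granule protein of platelets and leukocytes, 89.4, 100.05 and 103.

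**Figure D3:**
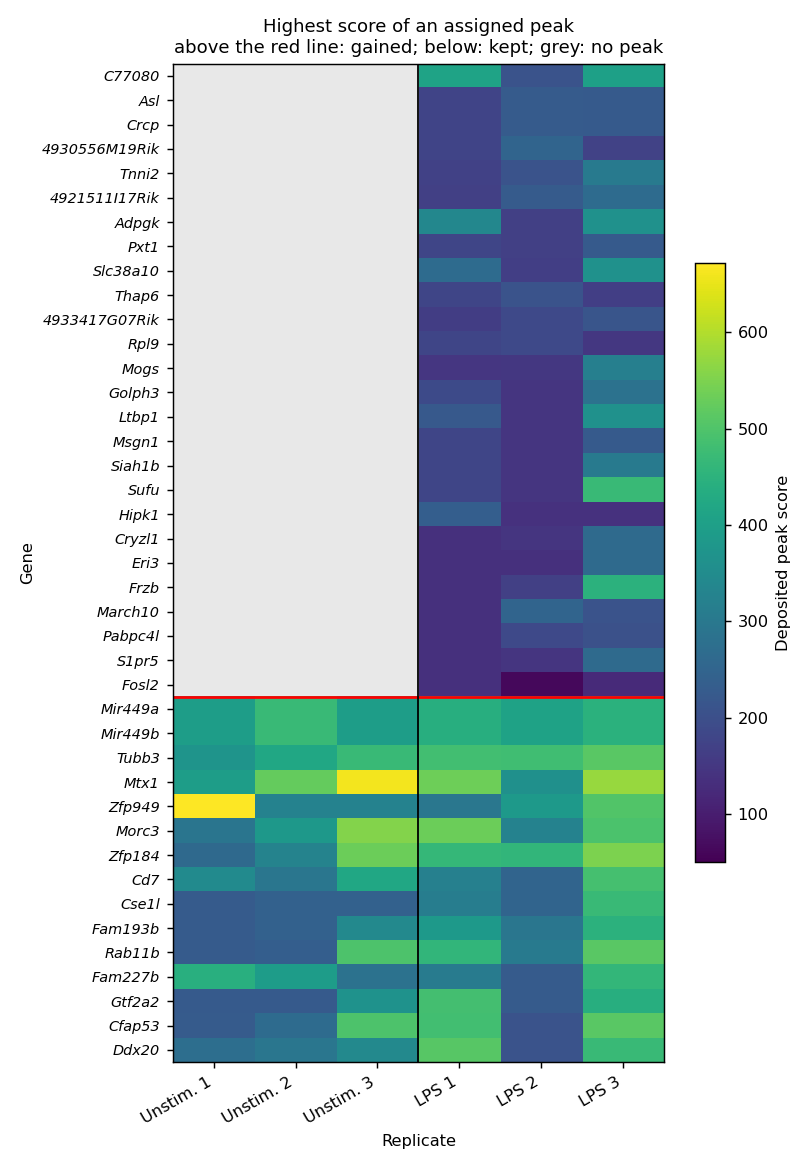
Highest score of an assigned peak (colour) in each unstimulated and LPS replicate (x axis) at the 25 genes gained in all 3 LPS replicates with the highest lowest score, at Fosl2, and, below the red line, at the 15 kept genes with the highest lowest score. Grey means no assigned peak. At the kept genes other than Zfp949, LPS replicate 2 is darker than LPS replicates 1 and 3, whereas at the gained genes this varies. Fosl2 has the lowest single score of the gained genes shown.

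Fosl2, which encodes the Fos family member FRA-2, was gained in all 3 LPS replicates. It was the only one of the 7 Fos and Jun genes to be gained. Its scores were 137, 63.8 and 124 in LPS replicates 1, 2 and 3, and no unstimulated and no apoptotic cell replicate had an assigned peak. The peaks lay at chr5:32135237-32135345, chr5:32135179-32135653 and chr5:32135234-32135511, so that the first lay within both others, and were centred 1056 to 1181 bp upstream of the start at 32136472. The call was not firm: with a score of at least 100, 2 LPS replicates remained, and among the 20981 highest-scoring peaks of each replicate, 0. When peaks were assigned to any RefSeq gene within 5000 bp, 1 unstimulated replicate also had a peak at Fosl2.

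Junb had a peak in LPS replicates 1 and 3, with scores of 314 and 449, and in unstimulated replicate 3, with a score of 197, all at about chr8:84983322-84983444. It was therefore neither gained nor kept. Jun had a single peak, in LPS replicate 3 (181), and Fosb a single one, in unstimulated replicate 2 (125). Fos, Fosl1 and Jund had no assigned peak in any replicate. Of the LPS response genes that the study followed by quantitative PCR, Il6 had no assigned peak and Lcn2 had one in unstimulated replicate 1 only (99.8), to which the RefSeq assignment added a peak in 1 LPS replicate. Il12b had a peak in LPS replicate 2 only (215), to which the RefSeq assignment added a peak in 1 unstimulated replicate. Mmp13 and Saa3 had no assigned peak. From its own peak calling on these reads, the study reports FRA-1 at the Il6 and Lcn2 promoters, mainly after LPS. It also measured FRA-1 there by ChIP with quantitative PCR, in bone marrow-derived and peritoneal macrophages. The calls given here rest on the deposited peaks, and the calling of the study was not repeated.

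Among the 1048 genes gained in exactly 2 LPS replicates, the 15 with the highest lower score all had their peaks in LPS replicates 1 and 3, at overlapping positions. Rad50, of the DNA double-strand break repair complex, had scores of 338 and 513. Cct6a, a chaperonin subunit, had 335 and 342. Entpd1, the ectoenzyme CD39 that hydrolyses extracellular ATP, had 308 and 404. Its peaks were centred about 299 bp upstream of the nearer of its 2 listed starts. They lay inside the gene, far downstream of its first start at chr19:40612366. Eme1 and Mrpl27, a nuclease subunit and a mitochondrial ribosomal protein, shared a peak with scores of 323 and 405. Xist, the RNA of X inactivation, had 338 and 365. The others were 7420426K07Rik, Spryd7, Defb26, 4921515E04Rik, Isx, Ankrd27, Fam58b, Gm5935 and Pbxip1. With the RefSeq assignment, 9 of these 15 stayed gained, whereas Entpd1 and 4921515E04Rik had peaks in 3 unstimulated replicates, Gm5935 in 2, and Rad50 and Isx in 1.

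The 29 gene lists held 625 genes, of which 233 (37.3%) had a peak. Of these 233, 30 were gained (12.9%, near the 13.2% of all genes with a peak), 7 were kept (3.00%, against 3.74%) and 3 had the opposite pattern. Of the 30 gained genes, 19 had peaks in LPS replicates 1 and 3 only, 19 had overlapping peaks in at least 2 LPS replicates, and 3 were gained in all 3 replicates (Fosl2, Asl and Ltbp1). With the RefSeq assignment, 9 of the 30 stayed gained (Arg1, Asl, Ccl7, Clec4d, Gbp3, Gpx1, Lta, Tab1 and Tnf), and 0 of the 3 with the opposite pattern (Mafk, Irak1 and Ebi3) kept it, so the values below hold for the deposited assignment. Leaving out LPS replicate 3 left 6 gained genes, and leaving out LPS replicate 1 left 8. Counts in single lists are small, and no list was tested against the share of all genes.

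In the list of the LPS receptor and its signalling, 13 of 32 genes had a peak and 3 were gained (23.1% of 13, against 13.2% of all genes with a peak). Tbk1, the kinase of IRF3, had scores of 164 and 83.8 in LPS replicates 2 and 3. Map3k8, the kinase TPL2 upstream of ERK, had 94.0 and 175 in LPS replicates 1 and 2. Tab1, of the TAK1 complex, had 75.2 and 103 in LPS replicates 1 and 3. In each of the 3 the peaks lay at different places. Irf3 was kept, with scores of 220.2 and 151 in unstimulated replicates 2 and 3 and 179, 107 and 135 in the LPS replicates. Irak1, a kinase next to the receptor, had the opposite pattern, with 141 and 107 in unstimulated replicates 1 and 3. Ticam1, the adaptor TRIF, had peaks in all 3 LPS replicates (223, 89.3 and 345) and in unstimulated replicate 3 (129).

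Of 11 NF-kB genes with a peak, 1 was gained, Nfkbib, an inhibitor of NF-kB (179 and 208 in LPS replicates 1 and 3). Of the 9 cytokine genes with a peak, the gained ones were Tnf and Lta, neighbours that shared a peak with scores of 179 in LPS replicate 1 and 79.9 in LPS replicate 3, at chr17:35205750-35205866 and chr17:35205752-35206011. It was centred 457 to 530.0 bp upstream of the Lta start and 3801 to 3874 bp upstream of the Tnf start. Il23a, the p19 subunit of interleukin 23, was kept, with scores of 141 and 187 in unstimulated replicates 1 and 3 and 222, 120 and 385 in the LPS replicates. Ebi3, a subunit of interleukins 27 and 35, had assigned peaks in unstimulated replicates 2 and 3 (107 and 140.3), but in all 6 replicates with the RefSeq assignment. Of 8 chemokine and chemokine receptor genes with a peak, Ccl7 alone was gained, in LPS replicates 2 and 3 (70.1 and 97.2), at different places.

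JAK-STAT signalling had 4 gained genes of 12 with a peak (33.3%, against 13.2% of all genes with a peak). With the RefSeq assignment, each of the 4 had a peak in at least 1 unstimulated replicate. The 4 gained genes were Jak1 (134 and 61.35 in LPS replicates 1 and 2), Jak2 (137 and 136 in LPS replicates 1 and 3), Stat5b (239 and 179.6 in LPS replicates 1 and 3) and Il6st, the gp130 chain of the interleukin 6 receptor (136 and 205 in LPS replicates 1 and 3). All but Jak1 had overlapping peaks, and those of Jak2, Stat5b and Il6st were centred more than 5000 bp downstream of a listed start. In arginine metabolism, 3 of 7 genes with a peak were gained (42.9%). Beside Asl these were Arg1, the arginase of alternatively activated macrophages, with scores of 127 and 86.1 in LPS replicates 2 and 3 at separate places, and Srm, the spermidine synthase, with 137 and 138 in LPS replicates 1 and 3.

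The list of lysosome genes had 3 gained genes of 9 with a peak (33.3%, against 13.2% of all genes with a peak). They were the protease gene Ctsl (159.0 and 232 in LPS replicates 1 and 3), the lipase gene Lipa (63.7 and 79.1 in LPS replicates 2 and 3) and Cd63, a membrane protein (147 and 227 in LPS replicates 1 and 3). The adhesion list had 3 of 12, Selplg, the ligand of P-selectin (200.5 and 428), Itgal, a chain of the integrin LFA-1 (108 and 227), and Alcam (137 and 246), with Pecam1 kept. Rac1, a small GTPase of the actin cytoskeleton, stood in the actin and the apoptotic cell receptor lists and had overlapping peaks of 107 and 108 in LPS replicates 1 and 2. Vcl, which encodes vinculin and stood in the actin list, was gained with 179 and 407 in LPS replicates 1 and 3. The antioxidant list had Gpx1 (134 and 418) and Gsr (135 and 136). Single gained genes were Ltbp1 in the TGF-beta list, Gbp3 in the interferon list, Atf2 among the ATF factors and Clec4d, a C-type lectin receptor, in the acute phase list.

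No gene was gained in 6 further lists: eicosanoid synthesis (8 genes with a peak), matrix proteases (8), cholesterol efflux (11), glycolysis and hypoxia (12), apoptosis (7) and the macrophage lineage factors (8). The same held for the 14 immediate early genes with a peak and the 4 genes with a peak in the list of MAP kinases, their phosphatases and feedback inhibitors. Since 13.2% of all genes with a peak were gained, 0 gained genes in lists this short is not read as a difference. Among markers of other cells that the peritoneum could hold, 1 B cell marker was gained, Ebf1 (225 and 369 in LPS replicates 1 and 3), of 2 with a peak, and 0 of 4 neutrophil, 2 T cell, 2 mast cell and eosinophil and 2 mesothelial and fibroblast markers with a peak. Olfactory, vomeronasal and taste receptor genes, which macrophages are not known to depend on, made up 4.67% of all genes with a peak, 2.77% of the gained, 2.14% of the kept and 11.8% of the 102 genes with the opposite pattern.

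**Figure D4:**
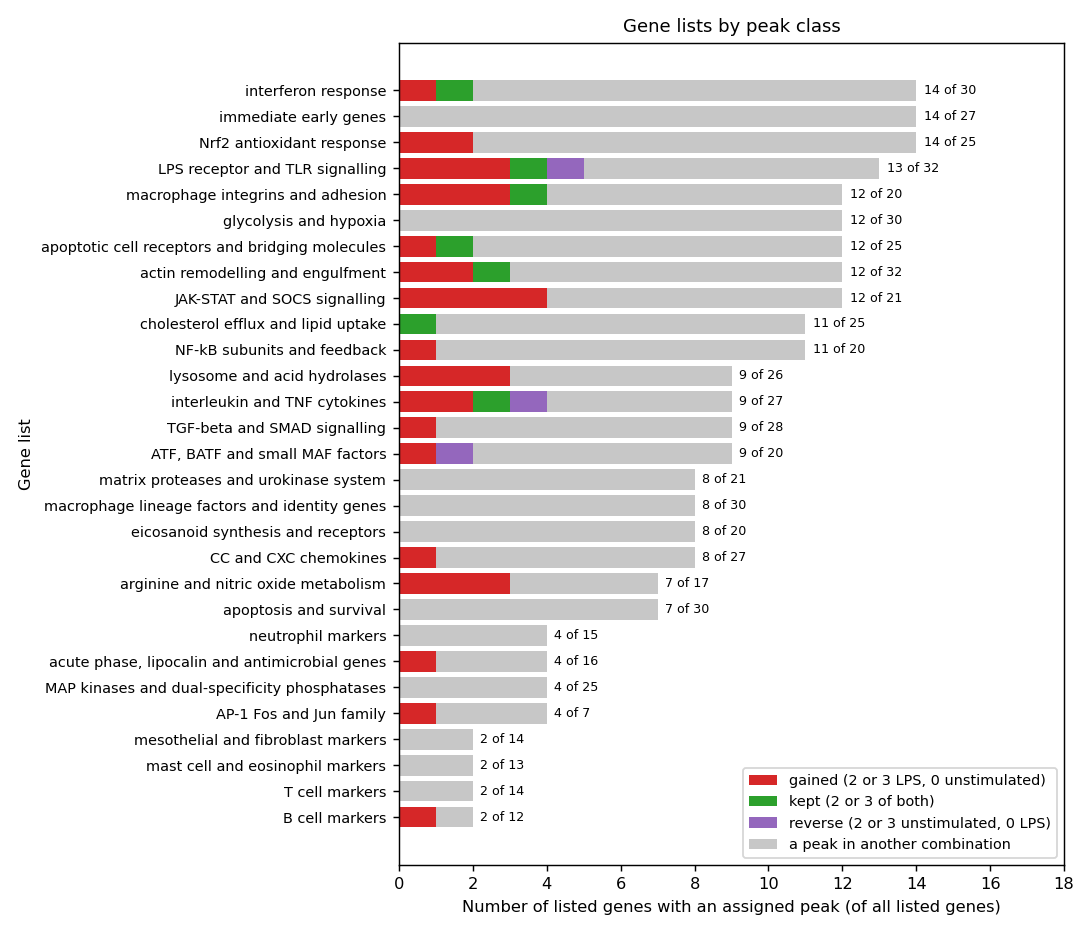
Number of genes with an assigned peak in each of the 29 gene lists (x axis), divided into gained (red), kept (green), opposite pattern (purple) and other combinations of replicates (grey); the numbers give genes with a peak of all genes listed. JAK-STAT signalling had the most gained genes, 4 of 12, and in every list with more than 2 such genes the grey part was the longest. Of all genes with a peak, 13.2% were gained, and no list was tested against this share.

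The kept genes had higher scores than the gained genes in the LPS replicates. Both groups were formed by the presence of peaks in these same libraries, so the difference can follow from the rule and was not tested. The median of the highest score per gene was 386, 184 and 446 in LPS replicates 1, 2 and 3 for the 94 genes with all 6 replicates, against 142, 127 and 227 for the 108 gained in all 3. In both groups LPS replicate 2 was the lowest. Of the 108 genes, 23.1% had in LPS replicate 1 exactly the most common score of that library, 137, 16.7% in LPS replicate 2 that of its library, 127, and 1.85% in LPS replicate 3 that of its library, 136, where 13.0%, 13.3% and 9.28% of all peaks of these libraries had these scores.

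Mir449a and Mir449b, microRNAs of multiciliated cells, shared a peak and were first among the kept genes, with scores of 396, 472 and 396 in the unstimulated and 439, 409 and 447 in the LPS replicates. The peak at chr13:113036966-113037147 ended upstream of Mir449a, whose 2 mature sequences are given with the seed (bases 2 to 8) in capitals, since Mir449a led the kept genes.
mmu-miR-449a-5p: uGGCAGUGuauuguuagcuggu
mmu-miR-449a-3p: cAGCUAACaugcgacugcucuc
Among the gained genes, Mir3091 shared its peaks with Rps21, and its mature sequences are shown in the same way as the microRNA with the highest lowest score among those gained in all 3 LPS replicates.
mmu-miR-3091-5p: cAUGGGUCugguugggcccgc
mmu-miR-3091-3p: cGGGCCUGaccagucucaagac

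The 17 mature microRNAs with a RefSeq sequence at genes gained in all 3 LPS or kept in all 6 replicates had 17 different seeds. Tubb3, a beta tubulin of neurons, followed with 371, 419.7 and 472 without and 484, 479.7 and 513 with LPS, at about chr8:123408960-123409150. Mtx1, a protein of the outer mitochondrial membrane, had 395, 525 and 660.01 without and 534, 362 and 576 with LPS. Zfp184 had 263, 329 and 531 without and 463, 459 and 549.5 with LPS. In Mtx1 and Zfp184 the ranges of both conditions overlapped, and in Tubb3 they did not.

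The remaining genes of the first 15 were Zfp949, Morc3, Cd7, Cse1l, Fam193b, Rab11b, Fam227b, Gtf2a2, Cfap53 and Ddx20, whose scores in the 6 replicates ran from 208 to 671. Among all 94 genes, 5 (5.32%) had every LPS score above every unstimulated score. These were Tubb3, Cse1l, a nuclear export factor, Kdm3b, a histone demethylase, and the neighbours Atraid and Slc5a6, which had the same scores. In 0 genes was every LPS score below every unstimulated score. When scores were replaced by their percentile within the replicate, 7 genes were above and 3 below. By a two-sided exact permutation test, full separation of 3 from 3 replicates gives only p = 0.1 for a single gene. The counts of separated genes are therefore a description and not a sign of a change with LPS. Among the kept list genes were also Lrp1, an endocytic receptor, Pecam1, Gbp5 and Rhoa.

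Of the 4 genes with peaks in 3 unstimulated and 0 LPS replicates, Dpt, a matrix protein of fibroblasts, had scores of 141, 151 and 197. Rcor3, a corepressor subunit, had 178, 292 and 80.6. Cad, the first enzyme of pyrimidine synthesis, had 80.0, 142 and 107, and Pqlc3 had 206, 66.3 and 101. They were named after their values were seen. Among the genes with at least 2 unstimulated replicates, the highest lower scores were those of Atxn7l1, Zic4, Atp5g2, Zfand6 and Vmn2r112, of which Vmn2r112 alone kept the pattern with the RefSeq assignment. Mafk, a small MAF protein that pairs with AP-1 relatives, also belonged to them (57.0 and 129).

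Genes just outside the gained group in all 3 LPS replicates were the 127 with 3 LPS and 1 unstimulated replicate. Their single unstimulated score ranged from 66.2 at Mir103-2 to 419.8, with a median of 181, and in 107 of them (84.3%) it came from unstimulated replicate 3. Casp1, the protease that processes interleukin 1 beta, was one of them, with 124, 80.0 and 239 in the LPS replicates and 181 in unstimulated replicate 3.

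The deposited gene assignment placed most peaks upstream of a start. Of the LPS peaks at gained genes that could be compared with a RefSeq start, 70.8% were centred within 5000 bp upstream, and the median of these was 2253 bp. For the genes gained in all 3 LPS replicates these values were 73.4% and 1961 bp, for the kept genes 60.9% and 2346 bp, and for all genes 70.4% and 2289 bp. Within 250 bp upstream lay 2.29% of the peaks at gained genes, 1.26% of those at kept genes and 2.44% of all. Of the gained and kept genes, 86.7% and 88.4% were protein-coding, against 85.4% of all genes with a peak, and 6.75% and 3.98% were long non-coding RNAs, against 7.84%. The median length of the protein-coding genes was 20942 bp for gained, 22849 bp for kept and 19358 bp for all genes. These differences were not tested.

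**Figure D5:**
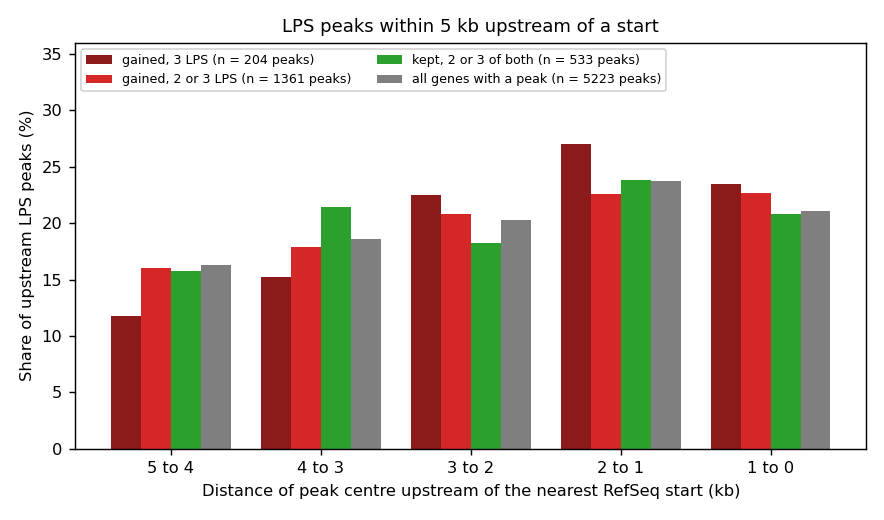
Share of the LPS peaks within 5000 bp upstream of the nearest RefSeq start (y axis, in percent) by distance of the peak centre from the start in kb (x axis), for genes gained in all 3 LPS replicates, gained genes, kept genes and all genes with a peak. In genes gained in all 3 LPS replicates, 27.0% lay 1 to 2 kb and 11.8% lay 4 to 5 kb upstream, against 23.7% and 16.3% for all genes.

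The apoptotic cell replicates did not enter the rule. Of the gained genes, 465 (40.2%) had a peak in at least 1, 138 (11.9%) in at least 2 and 23 (1.99%) in all 3 apoptotic cell replicates. For the genes gained in all 3 LPS replicates these shares were 57.4%, 18.5% and 7.41%, and for the kept genes 93.6%, 81.3% and 62.4%. All genes with a peak had 33.6%, 9.16% and 3.64%, and the 3977 genes with 1 LPS and 0 unstimulated replicates 26.5%, 2.56% and 0.151%. Among the 8 genes gained in all 3 LPS replicates with a peak in all 3 apoptotic cell replicates were C77080 (186, 263 and 283), Sufu (212, 175 and 165), Eif1 (125, 254 and 166) and Sox10 (169.8, 75.7 and 147), a factor of neural crest cells. Asl, Thap6, Golph3, S1pr5 and Fosl2 had no peak in any apoptotic cell replicate.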

How the data were processed

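FRA-1 ChIP-seq of mouse peritoneal macrophages was analysed from the peak tables, 1 per condition, with 3 replicates each. The deposited values are scores per replicate and genome segment, with -1 for no peak. Per the labels, reads were mapped with BWA 0.7.14 to mm10 (GRCm38) and bedtools was used, while the peak caller behind these tables is not given in the sources used here. The study's own later peak calling from the reads was not used. The columns name no mouse, and replicates are numbered by column. Input libraries were not used, and no depth is given.

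Neighbouring segments of equal score were merged to peaks, and each replicate's peaks were linked to the symbols listed beside them. Entries repeated for several transcripts were counted once. Of 8754 symbols, 8716 (99.6%) matched a RefSeq name, and 6227 had a RefSeq promoter (GRCm38.p6). The steps were tested on simulated tables. Python 3.11.15, numpy 2.4.6, pandas 2.3.3 and scipy 1.17.1 were used.

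The genes to name were the 25 genes with 3 LPS and 0 unstimulated replicates whose lowest score was highest, the 15 such genes with exactly 2 LPS replicates, the 15 such kept genes, 5 of the opposite pattern, list members of these groups, the Fos and Jun genes and the LPS response genes with primers in the study. Other genes were named after their values were seen. Genes, lists and rules were chosen with earlier results of these data known. Since separate animals are not certain, p-values measure only the spread between these samples. Alternatives were a minimum score of 100, equal peak numbers, another gene assignment, overlapping peaks, peak width classes and leaving out replicates.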

Additional observations from a re-analysis of the deposited data

Results flagged for a closer look

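The tables also list Ensembl gene identifiers, of which 5823 with a peak in an LPS or unstimulated replicate never stood beside a symbol and so entered no comparison above. Of these, 649 (11.1%) had peaks in at least 2 LPS and 0 unstimulated replicates, against 76 in the opposite direction. The same share was 13.1% over all Ensembl identifiers and 13.2% over the symbols, so it was not raised here. The rule itself sets these 649 identifiers above the unstimulated replicates. They were looked at only because they stand in a column not used for the comparison. Their names were not matched here.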

How the results depend on the processing

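The number of genes gained in at least 2 LPS replicates (1156) was 373 with equal numbers of top-scoring peaks, 4845 with assignment to any RefSeq gene within 5000 bp and 1989 by the Ensembl column, and 196 to 1537 when 1 replicate was left out. The number gained in all 3 (108) was 27, 1040 and 225 under the same settings, 47 with overlapping peaks, 1024 in the narrow and 1696 in the wide peak class, 1249 without the 2 replicates of differing width, and 115 to 890 with 1 replicate left out; fewer replicates must be met in the last 4 settings. Kept genes (327) were 6717 with the RefSeq assignment, 761 by the Ensembl column, 673 and 106 in the narrow and wide class, 127 without the 2 replicates of differing width and 131 to 321 with 1 left out. Of the 1156 gained genes, 345 were shared with the equal-number setting, 531 (45.9%) with the RefSeq assignment and 824 with a score of at least 100. The RefSeq assignment changed the call or the number of replicates for 58 named genes and not for 45. Gained list genes (30) were 10 with equal numbers, 70 with the RefSeq assignment and 6 to 45 with 1 replicate left out. The ratio of genes per replicate was 1.76 to 2.51 with 1 replicate left out. Of gained genes, 34.1% had an apoptotic cell peak at a score of at least 100 and 25.8 to 49.1% with 1 replicate left out (kept genes 87.8 to 98.9%). Overlapping peaks were found in 58.9% when 50% of both peaks had to overlap and in 29.0 to 86.9% with 1 left out. TGANTCA stood in 6.8% of the promoters of gained genes; the share of TGACTCA or TGAGTCA was 4.59 to 7.73% with 1 replicate left out, and 1.60 to 3.40% for kept genes. The cause of these differences was not tested, apart from the number of replicates to be met. The settings without both replicates of differing width, by the Ensembl column and by locus were chosen after seeing the data. The first of these sets narrow-peak LPS against wide-peak unstimulated replicates. No paired analysis was possible because no column of the tables names its mouse.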
